A study of Mus musculus with 80 samples.

Results

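The genes described here encode the proteins of the cytosolic ribosome. They were chosen by name: a spot counted if the platform annotation gave it exactly 1 gene symbol, and that symbol was a cytosolic ribosomal protein name (Rpl or Rps followed by a digit, Rplp0, Rplp1, Rplp2 or Rpsa), with the S6 kinase names left out. This gave 66 genes on 146 spots, of 7151 genes that had a spot of their own and 16896 spots in all. Each gene was represented by its spot of highest mean over all mice. A further 7 names (Rpl12, Rpl14, Rpl22, Rps2, Rps3, Rps16 and Rps27) occurred only on spots that carried several symbols and were not analysed.

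Lung RNA came from 40 C57BL/6 mice, 20 of them male, on regular feed without restriction. There were 5 males and 5 females in each of 4 age groups, 17 to 44, 169 to 194, 476 to 499 and 704 to 743 days; no mouse carried a listed allele, transgene or drug, and all shared strain and diet. Total RNA from lung broken up with glass beads was column purified, and 33P-labelled cDNA was hybridised to 2 spotted cDNA arrays per mouse, here called table A and table B. The series compared mice by age and sex.

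The cytosolic ribosome joins a small subunit, which holds the mRNA and the decoding site, to a large subunit, which forms the peptide bond. Each ribosome needs nearly the same number of each of these proteins. The mRNAs of most of them begin with a short run of pyrimidines, the TOP motif, through which mTORC1 and Larp1 adjust their translation, so protein synthesis can change with little change in mRNA. Many of their promoters lack a TATA box and carry sites for ETS factors such as GABP. Growing tissue needs many ribosomes, and postnatal lung grows as alveoli form.

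Of the 66 genes, 37 belonged to the large subunit, 22 to the small subunit, and 3 (Rplp0, Rplp1 and Rplp2) to the stalk that recruits elongation factors. The other 4 names were paralogues of ribosomal proteins, Rpl7l1, Rpl22l1, Rpl39l and Rps27l. Table A held the chosen spot of 22 genes and table B that of 44. Only 1 spot stood for 25 of the genes, while 41 had 2 or more, and Rpl4 and Rpsa had 6 each. Spots of 1 gene are different clones or prints of it, not replicates of a condition.

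RefSeq promoter windows (assembly GRCm38.p6, 250 bases before to 50 after an annotated start) were at hand for 52 of the 66 genes. The ETS core CGGAAG, read on both strands, was in a window of 37 of the 52 genes (71.2%), against 36.2% of 5781 other genes on the arrays and 18.8% of all 27025 genes of the table. A TOP-like tract, a run of at least 6 C or T letters that began with C within 10 bases of the start on the sense strand, was in 25 (48.1%), against 21.2% and 20.4%. The tract and the core overlapped in 0 of the 52. A match describes letters only, and an annotated start can differ from the start used in lung. The 8 windows of 60 bases below run from 45 bases before the start to 15 after it, 5′ to 3′ on the gene's strand. The first 6 genes are those that were lower at 33 to 44 than at 17 to 21 days, as described further on. Rps10 shows a core and a tract together, and Rpl26 a core at the start. Capitals mark the core and the tract; Rpl38 has 2 adjoining cores, the tract of Rps12 goes on past the end of its window, and the cores of Rpl4, Rpl24 and Rps12 and the further ones of Rps6 lie outside the bases shown.

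Rps6: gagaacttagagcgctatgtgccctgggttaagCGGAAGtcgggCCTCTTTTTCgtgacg
Rpl38: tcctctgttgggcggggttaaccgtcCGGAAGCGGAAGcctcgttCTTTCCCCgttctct
Rpl35a: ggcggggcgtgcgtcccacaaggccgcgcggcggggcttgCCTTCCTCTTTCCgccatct
Rps12: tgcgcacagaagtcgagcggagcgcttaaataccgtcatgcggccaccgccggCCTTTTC
Rpl4: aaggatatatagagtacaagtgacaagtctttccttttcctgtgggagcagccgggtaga
Rpl24: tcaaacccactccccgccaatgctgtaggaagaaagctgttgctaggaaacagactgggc
Rps10: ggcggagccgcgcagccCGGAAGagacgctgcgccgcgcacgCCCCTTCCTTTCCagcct
Rpl26: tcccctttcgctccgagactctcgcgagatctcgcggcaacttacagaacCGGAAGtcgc

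The windows lie at chr4:86857353-86857412 on the minus strand for Rps6, chr11:114668535-114668594 on the plus strand for Rpl38 and chr16:33056437-33056496 on the plus strand for Rpl35a. That of Rps12 is chr10:23787195-23787254 (minus), that of Rpl4 chr9:64173342-64173401 (plus) and that of Rpl24 chr16:55966230-55966289 (plus). Rps10 was read from chr17:27635230-27635289 (minus) and Rpl26 from chr11:68901521-68901580 (plus). Each window ends in the first bases of the 5′ UTR, and no coding exon is printed.

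All values are z scores within an array, centred on its mean and scaled by its SD over all spots, so a difference is relative to the other spots of the array and no fold can be given. Markers of lung cells were measured for 10 of 28 listed genes, among them Sftpd, Slc34a2, Cav1 and Pecam1, and their mean per mouse ran from -0.16 to 0.206; Sftpb, Sftpc, Scgb1a1 and Ager had no spot of their own. None of the listed T cell markers had one either. Values on the arrays also moved by spot position, with the columns of a layout of 16 blocks, 24 lines and 22 columns. That layout was inferred from correlations in the data, and no label states it. The comparisons were therefore also run after subtracting, per array, the median deviation of each block and column, called position correction here. The 13 mice with title numbers of 46 and above are also set apart from the 27 below as a possible division; no label calls this number a batch. The title numbers also run in 5 successive sets, each with 1 mouse of every sex and age group. For 1 male of 714 days the description names another mouse than the title, and the title was followed. In whole lung, fewer cells of a type and less RNA per cell cannot be told apart.

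As a group, the ribosomal protein genes differed between ages by less than the spread between mice. Taken in each mouse, the median over the 66 genes averaged, from the youngest to the oldest of the 4 groups, 0.696 ± 0.089, 0.712 ± 0.109, 0.721 ± 0.086 and 0.691 ± 0.107 (SD, n = 10 each). Single mice ran from 0.52 to 0.925, and every age group overlapped every other. Females averaged 0.693 ± 0.091 (n = 20) and males 0.716 ± 0.1 (n = 20). The heat map of all genes and mice shows more difference between single mice of 1 age than between ages, apart from a few genes in the 5 youngest mice.

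**Figure D1:**
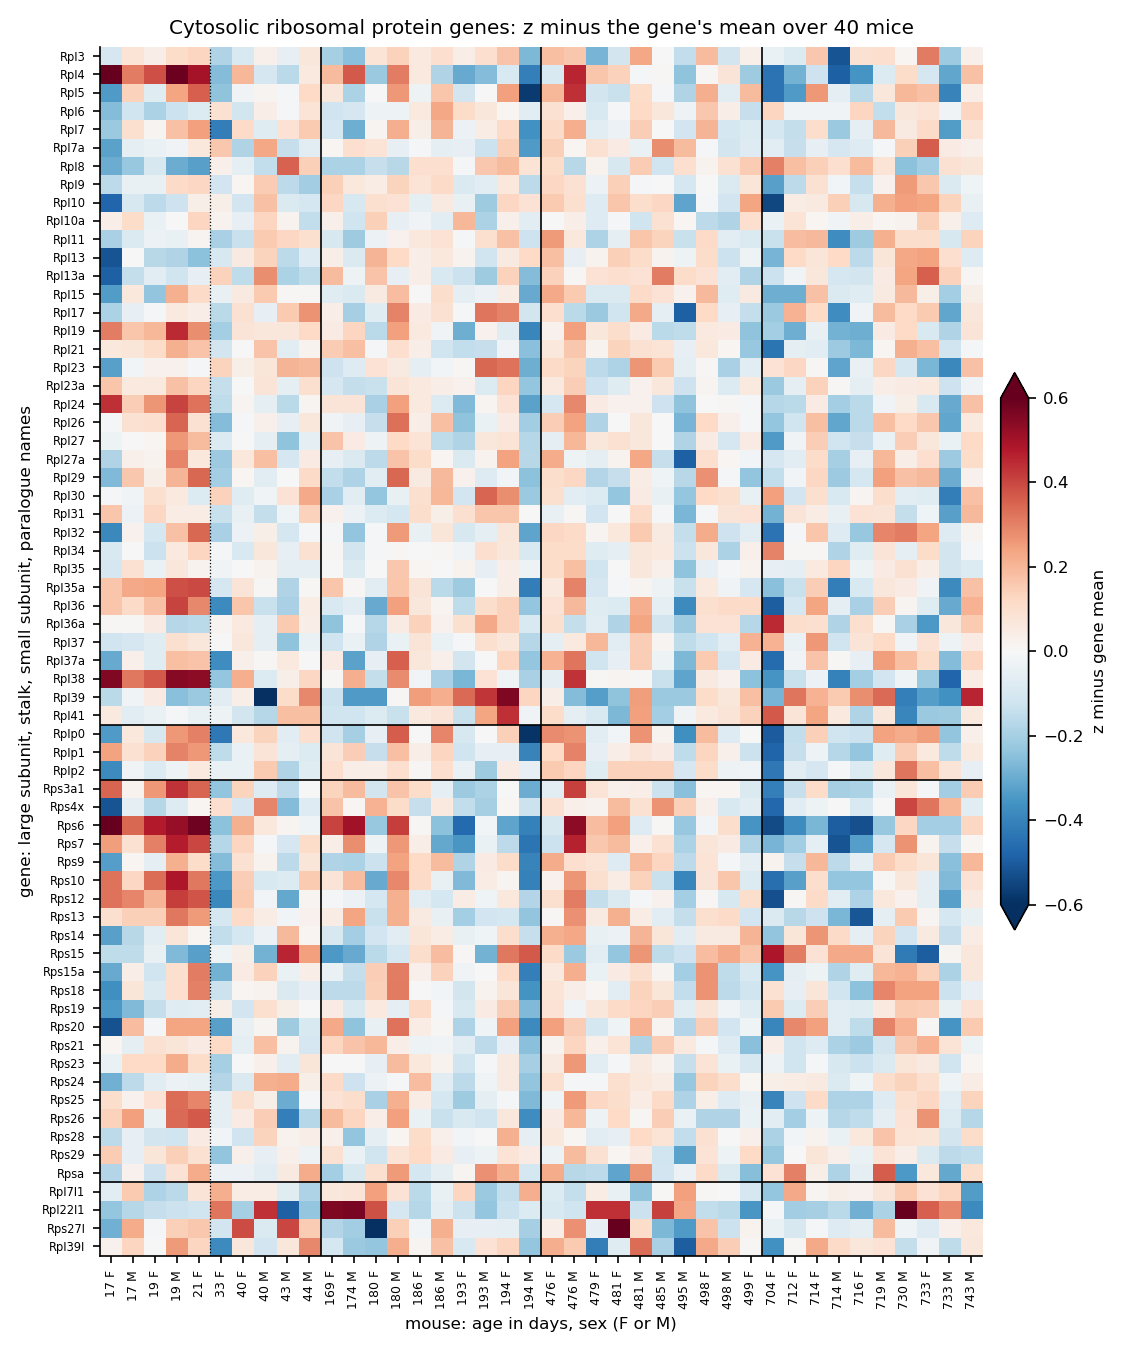
Heat map of 66 ribosomal protein genes (rows, by subunit) in 40 mice (columns, by age in days and sex); colour is the z score minus the gene's mean over all mice, with colours capped at 0.6 either way. Solid vertical lines part the 4 age groups and the dotted line parts the mice of 17 to 21 days from those of 33 to 44 days; Rpl4, Rpl38, Rps6, Rps10 and Rps12 are high in the first 5 columns.

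No gene of the group passed the threshold for a change with age over all 40 mice. By limma with Benjamini-Hochberg adjustment over all 16896 spots, 0 of 66 slopes had an adjusted p under 0.05, as did 0.028% of all 7151 genes. At an unadjusted p under 0.05, 10 of 66 were lower with age and 5 higher, against 10.4% of all genes lower and 5.13% higher. The median slope was -0.0022 z per 100 days (all genes 0.0019), and 39 of 66 slopes were negative. With the 5 sets of title numbers as a block, Rpl38 and Rps6 passed, 2 of 66 called lower against 2.55% of all genes.

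Among large subunit genes, 5 of 37 were lower and 4 higher at an unadjusted p under 0.05, against 10.4% and 5.13% of all genes. The smallest p belonged to Rpl38, a protein linked to translation of Hox mRNAs in the embryo. Its z score was 1.342 ± 0.276 (n = 10, lowest 0.87, median 1.37, highest 1.66) at 17 to 44 days and 1.079 ± 0.183 (0.83, 1.085, 1.39) at 169 to 194 days. It was 1.084 ± 0.203 (0.79, 1.11, 1.54) at 476 to 499 days and 0.912 ± 0.174 (0.63, 0.935, 1.15) at 704 to 743 days. The groups overlapped, with the youngest mice highest. The slope was -0.0521 z per 100 days (SE 0.0127, limma adjusted p = 0.0537), but 0.0088 (SE 0.0057, adjusted p = 0.6264) after position correction. The 2 readings differ in sign.

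Rpl4, which lines the peptide exit tunnel, had a slope of -0.0453 (SE 0.0153, limma adjusted p = 0.1143), with group means of 1.827 ± 0.322, 1.557 ± 0.271, 1.642 ± 0.202 and 1.422 ± 0.224 from youngest to oldest. Rpl19, whose C-terminal helix reaches the small subunit, had a slope of -0.0298 (SE 0.0102, limma adjusted p = 0.1192), and its group means went from 1.205 ± 0.175 to 0.938 ± 0.159. Both stayed negative after position correction, at -0.011 and -0.0105. Slopes leaned the other way for Rpl13a, released from the ribosome in interferon-treated monocytes, at 0.0219 (SE 0.0097, adjusted p = 0.2812), and for Rpl8, which binds near the peptidyl transferase centre, at 0.0219 (SE 0.0099, adjusted p = 0.2939). After position correction that of Rpl13a was 0.0174 and that of Rpl8 0.0017.

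Among small subunit genes, 5 of 22 were lower and 1 higher at an unadjusted p under 0.05, against 10.4% and 5.13% of all genes. Rps6, the substrate of the S6 kinases, had the smallest p of them. It averaged 1.888 ± 0.305 (n = 10, lowest 1.38, median 1.905, highest 2.3) at 17 to 44 days and 1.591 ± 0.361 (1.16, 1.505, 2.13) at 169 to 194 days. The value was 1.656 ± 0.252 (1.27, 1.62, 2.16) at 476 to 499 days and 1.366 ± 0.24 (1.09, 1.375, 1.75) at 704 to 743 days. Oldest and youngest groups overlapped between 1.38 and 1.75. Its slope was -0.061 (SE 0.017, limma adjusted p = 0.05551), and -0.0267 (SE 0.0079, adjusted p = 0.1097) after position correction, the same sign at a smaller size. Rps19, mutated in Diamond-Blackfan anaemia, leaned upward from 0.29 ± 0.138 to 0.422 ± 0.104 (slope 0.0186, SE 0.0071, adjusted p = 0.1833), and by 0.0031 after correction.

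Rps25, which internal ribosome entry sites of several viruses need, was the only gene of the 66 past the threshold after position correction, against 0.0839% of all genes called higher. Its corrected slope was 0.0276 (SE 0.0059, limma adjusted p = 0.03536). As deposited, the same spot averaged 0.547 ± 0.176, 0.446 ± 0.156, 0.52 ± 0.124 and 0.429 ± 0.175 from youngest to oldest, a slope of -0.0107 (SE 0.0096, adjusted p = 0.7069). The direction thus turned with the correction, and the gene had no second spot. On the corrected values 14 of 66 genes leaned higher and 4 lower at an unadjusted p under 0.05, against 4.89% and 7.45% of all genes, and the median slope was 0.0018.

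**Figure D2:**
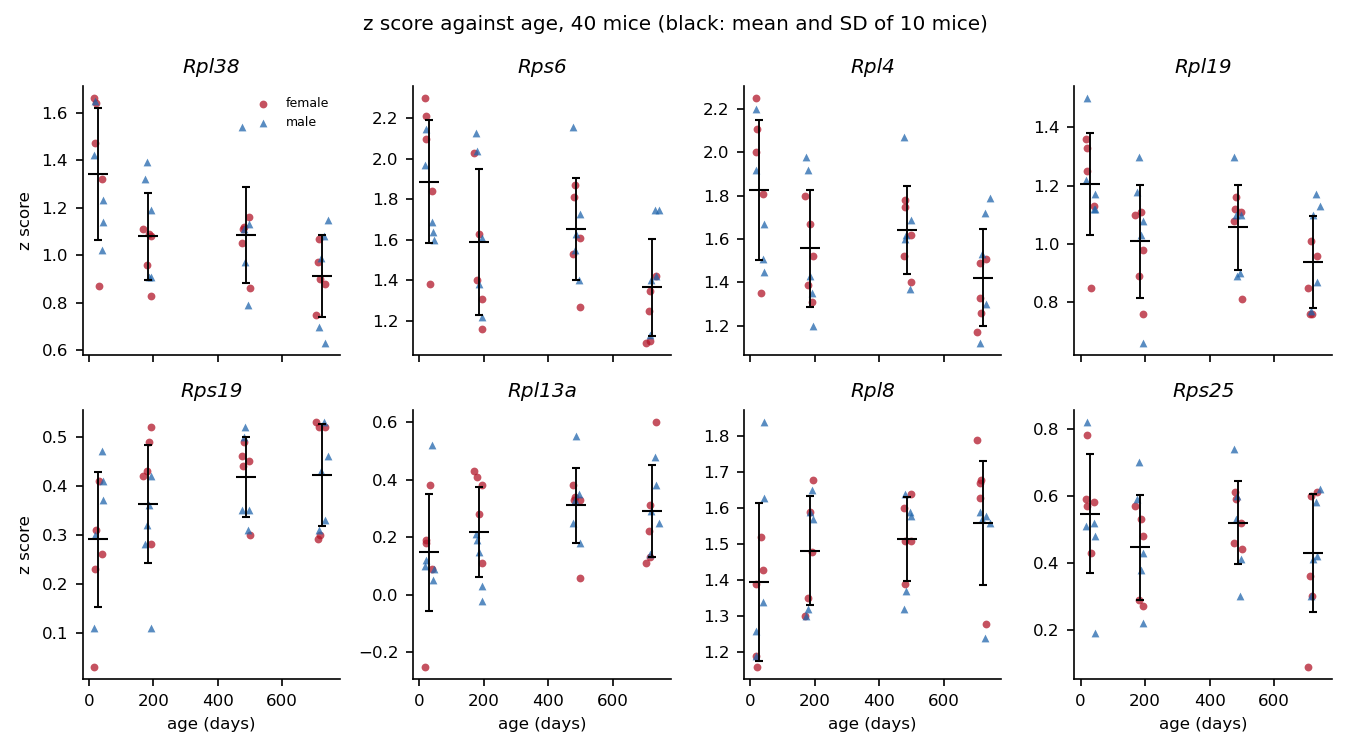
z score (vertical axis) against age in days for 8 ribosomal protein genes, as deposited, with red circles for females, blue triangles for males and black bars for the mean and SD of the 10 mice of an age group. Rpl38, Rps6, Rpl4 and Rpl19 are highest among the youngest mice, and in every panel the age groups overlap.

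Nor did a stalk gene pass. Rplp0, the stalk base, averaged 1.077 ± 0.237 in the youngest and 1.054 ± 0.246 in the oldest group (slope 0.0008, SE 0.0136, limma adjusted p = 0.9865). Rplp1 averaged 1.058 ± 0.157 and 0.88 ± 0.179 (slope -0.0191, SE 0.0097, adjusted p = 0.3829). Rplp2, its partner in the stalk dimer, averaged 0.628 ± 0.143 and 0.682 ± 0.198 (slope 0.0081, SE 0.0086, adjusted p = 0.7659). The paralogue names had slopes between -0.0055 (Rpl39l) and 0.0067 (Rpl22l1), and their smallest adjusted p was 0.9062.

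**Figure D3:**
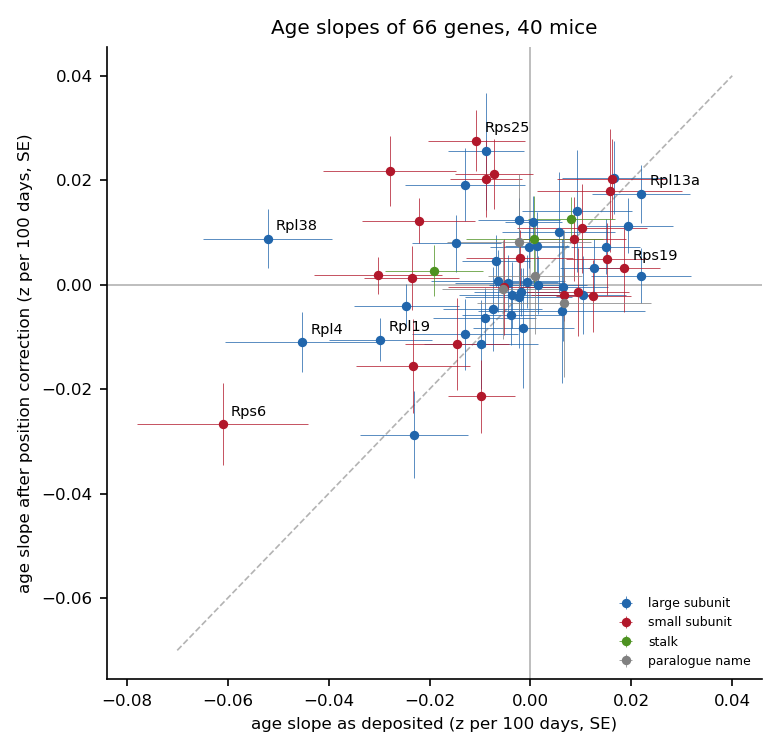
Age slope of each of the 66 genes in z per 100 days, as deposited (horizontal axis) and after position correction (vertical axis), with SE bars and colours by subunit; the dashed line marks equal values. Rpl38 and Rps25 lie left of 0 as deposited and above 0 after correction, while Rps6 lies below 0 on both axes.

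The slope depended on how age was scaled. With log2 of age in place of days, which weights the first weeks more, 7 of 66 genes passed: Rpl38, Rps6, Rpl4, Rpl19 and Rpl24 were lower and Rps19 and Rpl13 higher. In that fit 7.61% of all genes were called lower and 1.4% higher, so the 5 and 2 of 66 lay near the background. Among the 30 adult mice, 0 of 66 genes passed (limma; 0.0% of all genes) and 0 had an unadjusted p under 0.05 (2.59% of all genes), with a median slope of -0.0025 as deposited and 0.0037 after position correction.

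Neither step between age groups gave a call. From 17 to 44 to 169 to 194 days, 0 of 66 passed by limma (0.0% of all genes); at an unadjusted p under 0.05, 6 were lower and 1 higher, against 5.96% and 1.29% of all genes. From 169 to 194 to 704 to 743 days, 0 of 66 passed (0.014%) and 0 had an unadjusted p under 0.05 (2.31%). Differences in this later step ran from -0.225 (Rps6) to 0.123. The median of the 66 was -0.007 in the first step and -0.0165 in the later one, and after position correction 0.0084 and 0.0178, so both signs turned.

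No gene of the group passed the threshold between males and females by limma (0 of 66, and 0.0% of all genes), and 0 had an unadjusted p under 0.05 (1.47%). Differences, male minus female, lay between -0.0575 (Rpl10a, SE 0.032) and 0.0845. The 4 X-linked genes had small differences too. Rps4x, whose Y homologue is lost in the mouse, averaged 0.787 ± 0.205 in 20 females and 0.851 ± 0.168 in 20 males (difference 0.0645, SE 0.059, adjusted p = 0.9998). Rpl10, which completes the large subunit late in assembly, averaged 1.182 ± 0.203 and 1.209 ± 0.152. For Rpl36a the averages were 0.638 ± 0.178 and 0.627 ± 0.138, and for Rpl39 1.014 ± 0.264 and 0.988 ± 0.309. For a difference in age slope between the sexes, 0 of 66 genes passed (limma interaction term; 0.0% of all genes), and 0 had an unadjusted p under 0.05 (1.83% of all genes). The median sex difference turned from 0.0115 to -0.005 with position correction, and the median interaction went from -0.0007 to -0.0049.

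Under the main settings, the one comparison with calls was within the youngest group, between 5 mice of 17 to 21 days, around weaning, and 5 of 33 to 44 days. The genes that fell past the threshold were Rps6, Rpl4, Rpl24, Rpl38, Rps12 and Rpl35a, 6 of 66 called lower and 0 higher (limma with Benjamini-Hochberg adjustment) against 7.34% of all genes lower and 1.86% higher. The 6 of 66 called lower thus lay near the background. At an unadjusted p under 0.05, 14 were lower and 3 higher, against 12.6% and 8.42%. The median difference of the 66 was -0.065, against 0.0042 for all genes. After position correction it was 0.0199, against -0.0137, with 8 lower and 12 higher at an unadjusted p under 0.05, against 9.4% and 7.37% of all genes.

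Rps6 was 2.3, 1.97, 2.1, 2.15 and 2.21 in the mice of 17 (female), 17 (male), 19 (female), 19 (male) and 21 days (female). In those of 33 (female), 40 (female), 40 (male), 43 (male) and 44 days (male) it was 1.38, 1.84, 1.69, 1.64 and 1.6. The parts did not overlap, but the called genes were picked by p in these same mice, so such separation adds no support. The difference was -0.505 (SE 0.0973, limma adjusted p = 0.01542).

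Rpl4, in the same order of mice, was 2.25, 1.92, 2, 2.2 and 2.11, then 1.35, 1.81, 1.51, 1.45 and 1.67. Again every younger mouse lay above every older one, by a difference of -0.5283 (SE 0.1037, limma adjusted p = 0.01556). Rpl38 was 1.66, 1.42, 1.47, 1.65 and 1.64, then 0.87, 1.32, 1.02, 1.14 and 1.23 (difference -0.45, SE 0.0993, adjusted p = 0.0207). Its parts did not overlap, and the female of 33 days was lowest.

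Rpl24, mutated in the Belly spot and tail mouse, was 1.53, 1.24, 1.36, 1.5 and 1.42, then 0.94, 1.11, 1.04, 0.93 and 1.11 (difference -0.3775, SE 0.0818, limma adjusted p = 0.01979). Rps12, a small subunit protein at the beak, was 1.43, 1.4, 1.31, 1.52 and 1.48, then 0.72, 1.26, 1.09, 0.8 and 1.12 (difference -0.4367, SE 0.1083, adjusted p = 0.03035). Rpl35a, another Diamond-Blackfan gene, was 0.5, 0.56, 0.57, 0.72 and 0.73, then 0.23, 0.41, 0.34, 0.15 and 0.34 (difference -0.3217, SE 0.0823, adjusted p = 0.03433). None of these 3 genes had overlapping parts. Nor did Rpl19 (lowest younger mouse 1.22, highest older 1.17) or Rplp1 (1.07 and 1.06), which were not called. Rpl23 went the other way without overlap (highest younger mouse 1.48, lowest older 1.49) and was not called either. The share of all genes without overlap was not counted, so this separation cannot be called particular to ribosomal protein genes. The gene with the smallest p upward was Rpl8, with 1.19, 1.26, 1.39, 1.19 and 1.16, then 1.52, 1.43, 1.34, 1.84 and 1.63 (difference 0.3033, SE 0.0995, adjusted p = 0.0905).

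The called spots shared parts of table B with other spots that differed. The 6 spots lie in columns 6, 7, 9, 10 and 12 of table B, and the spots of other genes in columns 7 to 10 were also lower, by medians from -0.1129 in column 7 to -0.4017 in column 9. In column 12, which holds Rpl35a, that median was -0.08, and in column 6, which holds Rps12, it was 0.0958, with 23 other spots called lower and 21 higher. Over the 44 genes of table B, the difference of a gene and the median of the other spots of its column correlated at r = 0.549 (Spearman 0.571, across genes that share arrays and columns), with 36 of 44 of the same sign; over the 22 genes of table A, r was -0.088. After position correction 0 of 66 genes passed (limma; 0.0% of all genes). Rps6 then differed by -0.0875 and Rpl4 by -0.1108, while Rpl38 turned to 0.1479 (SE 0.0482, adjusted p = 0.1562). The parts of Rpl24 then overlapped, with corrected values from 1.132 to 1.207 in the younger and from 0.985 to 1.147 in the older. Rps12 and Rpl35a kept most of their difference, at -0.2954 (SE 0.0856, adjusted p = 0.116) and -0.2898 (SE 0.0447, adjusted p = 0.05403).

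**Figure D4:**
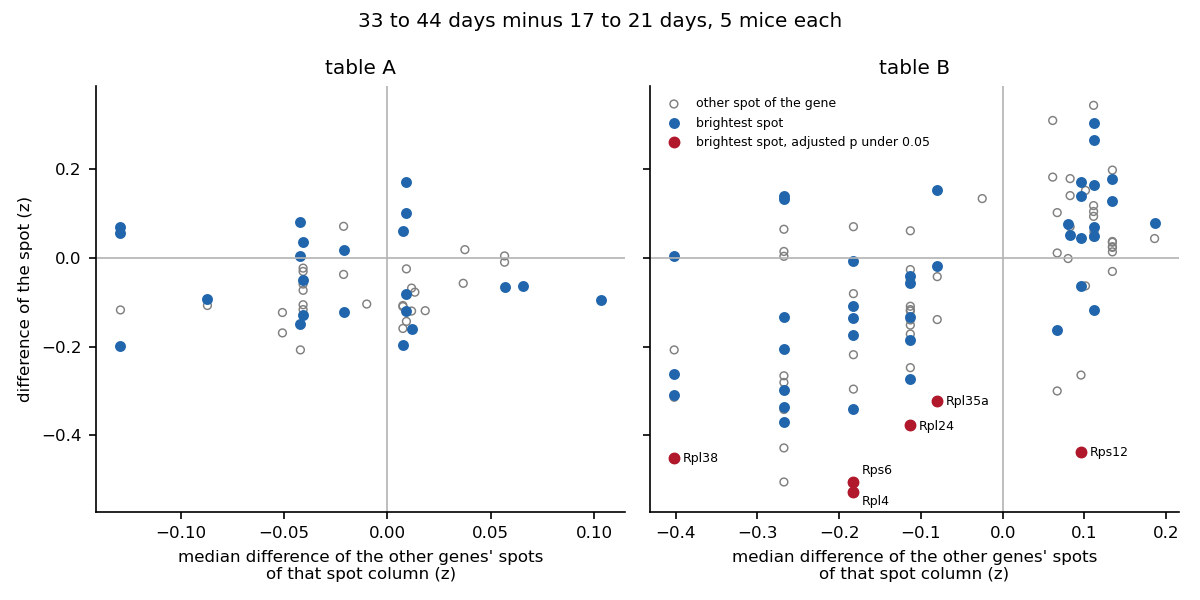
Difference in z between 33 to 44 days and 17 to 21 days (vertical axis, 5 mice each) for every ribosomal protein spot, against the median difference of other genes' spots in the same spot column (horizontal axis), by table. Filled points are the chosen spots, red those past the threshold, and open circles further spots of the same genes; on table B most points left of 0 are also below 0, and Rps12 lies right of 0.

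The calls also rested on few mice. They were 0 without the male of 19 days or without the female of 33 days, 2 without the female of 17 days or without that of 21 days, and 11 without the female of 40 days. Both young mice with title numbers of 46 and above, the female of 33 and the male of 40 days, were in the older part; with this division as a block 0 of 66 genes passed (limma; 0.0% of all genes), and 0 passed among the other 8 mice. With the 5 sets of title numbers as a block 0 of 66 passed as well (0.0% of all genes), and the median difference was 0.0354. Set 3 held only younger mice (19 and 21 days) and set 5 only older ones (40 and 33 days). That fit therefore drew the difference from the other sets alone, with few mice, and cannot show whether the calls depended on the set.

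As deposited, 6 of 9 measured erythroid markers were called lower, against 7.34% of all genes (Hba-a1, Hba-a2, Hba-x, Hbb-y, Fech and Alas2). Hba-a2 differed by -1.2567. The rest of the 9 were not lower, and 1 of them was higher at an unadjusted p under 0.05 (8.42% of all genes). Hba-a1 and Hba-x lie in column 7 of table B, Hbb-y in column 8 and Hba-a2 in column 12 of table A. Spots of other genes in these columns were also lower, by medians from -0.0871 to -0.2675. The mean of the 9 markers ran from 1.279 to 1.517 in the younger and from 0.896 to 1.143 in the older part. After position correction 0 of the 9 were called, and their median difference went from -0.4267 to -0.1951. Their part in the ribosomal protein result was not tested. Proliferation markers overlapped between the parts, with means of 20 genes from 0.325 to 0.458 and from 0.354 to 0.43; 1 of the 20 was called lower, Ccna2 (-0.5867, limma adjusted p = 0.0154, column 9 of table B). Of the 3 B and plasma cell markers, 4 neutrophil markers and 1 macrophage marker with a spot of their own, 0 were called.

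Further spots of the same genes gave other values. The other 3 spots of Rps6 differed by -0.05 (column 7), 0.025 and 0.035 (both column 15), where the chosen spot gave -0.505 (column 10). Rpl4 had 5 further spots, at -0.1075 and -0.1433 on table A and 0.07, 0.14 and 0.0108 on table B. The second spot of Rpl38, in column 14, differed by 0.3433 (SE 0.0972, limma adjusted p = 0.05161), the opposite of the chosen one in column 9. Rpl24, Rps12 and Rpl35a had 1 spot each. For these genes the sign of the change thus varied with the spot, or could not be compared.

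The 3 spots of Rplp1 had 1 sign as deposited. They differed by -0.2617 and -0.2075 in column 9 and by -0.3 in column 13 (SE 0.0753, limma adjusted p = 0.03151), a column whose other spots had a median of 0.0667. After position correction the column 9 spots gave 0.0089 and 0.0631 and the column 13 spot -0.3669. The 6 spots of Rpsa, the laminin receptor and small subunit protein, differed by 0.0033 and 0.0183 on table A and between -0.2475 and -0.1167 in column 7 of table B.

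Over the 41 genes with 2 or more spots, 21 had spots of 1 sign in this comparison (15 lower, 6 higher) and 20 had both signs. For the slope over 40 mice 20 had 1 sign (6 lower, 14 higher) and 21 both. Deviations of a mouse from its group correlated at a median of r = 0.803 between spots of 1 gene in the same column (38 pairs), 0.446 in other columns of the table (54 pairs) and 0.492 on the other table (52 pairs). After correction these were 0.501, 0.233 and 0.173.

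The genes varied together from mouse to mouse within the age and sex groups. Deviations from the mean of a mouse's age and sex group were correlated between the 22 genes of table A and the 44 of table B, which are separate arrays of the same RNA: the median over 968 pairs was r = 0.349, and 774 pairs were positive. Over pairs of other genes on the 2 tables the median was 0.004, over other genes whose mean z lay above the median of the 66 -0.038, and over mitochondrial ribosomal protein genes 0.035. Other genes of the very columns that hold these spots had a median of 0.057. After position correction the 968 pairs had a median of 0.045 and 543 were positive, and other genes of the same columns 0.003.

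Per mouse, the median of the 22 genes on table A ran from 0.325 to 0.905 and that of the 44 on table B from 0.53 to 0.93. They correlated over the 40 mice at r = 0.641 (Spearman 0.626), at 0.595 without the 2 mice farthest from the median of table A, and at 0.683 and 0.617 within the 27 earlier and 13 later title numbers. A male of 180 days was highest on both tables, at 0.905 and 0.93, and a male of 194 days was lowest on table A, at 0.325, with 0.57 on table B. After position correction the correlation was -0.018 (Spearman -0.138). The correction takes the median of 24 spots, and the 146 spots lay in 97 such sets, of which 10 held 3 or more and 1 held 6. How much of the shared variation was position and how much the correction removed with it cannot be told apart.

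**Figure D5:**
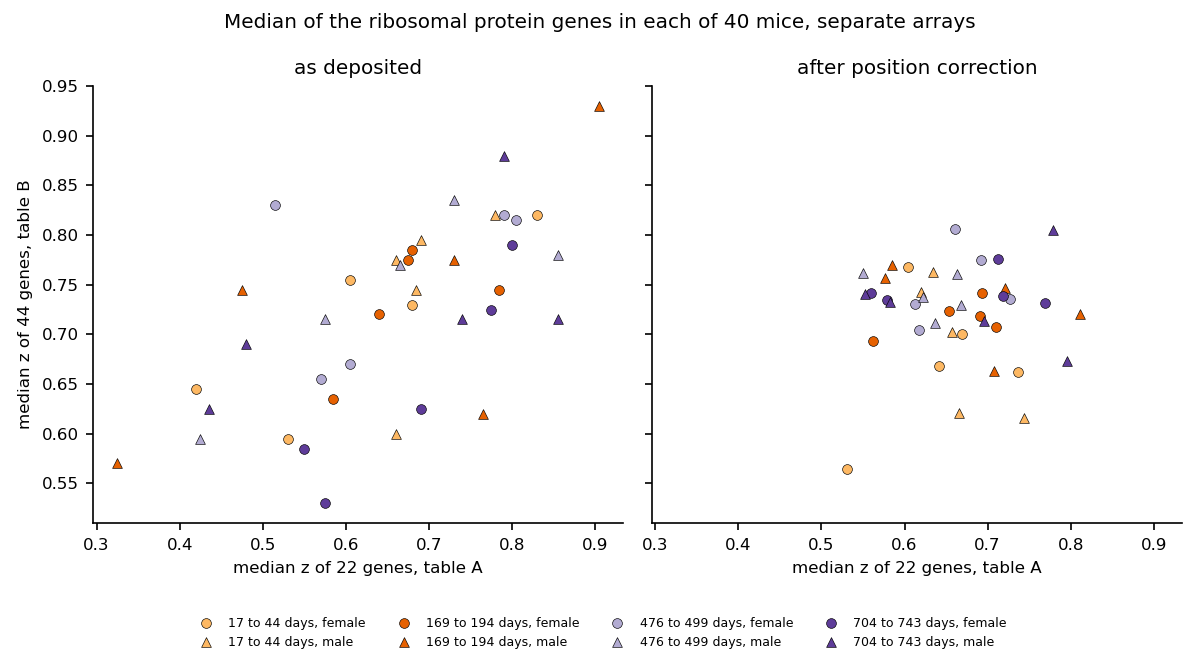
Median z of the ribosomal protein genes in each of 40 mice, 22 genes on table A (horizontal axis) against 44 on table B (vertical axis), as deposited (left) and after position correction (right), with colours for age group and shapes for sex. As deposited the points rise together (r = 0.641) with all ages mixed, and after correction they do not (r = -0.018).

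The genes nearest to the rest, by median correlation with the genes of the other table over 40 mice as deposited, were Rpl3 (0.681), Rps23 (0.637), Rpl36 (0.622), Rpl23a (0.606) and Rpl35a (0.602) on table B and Rpl26 (0.578) on table A. At the other end lay Rpl22l1 (-0.235) and Rpl7l1 (-0.233), which are paralogue names, then Rpl8 (-0.203) and Rps15 (-0.148). The remaining paralogue names, Rpl39l (0.316) and Rps27l (0.215), did not lie at that end.

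Genes of the same pathway were counted in lists. Over all 40 mice, 0 of 43 measured ribosome biogenesis genes, 0 of 10 RNA polymerase I genes, 0 of 15 genes of mTORC1 and TOP mRNA control, 0 of 19 other TOP mRNA genes and 0 of 49 mitochondrial ribosomal protein genes passed for the age slope (limma). At an unadjusted p under 0.05, 8, 1, 3, 5 and 4 of them were lower with age and 0, 1, 0, 0 and 1 higher, against 10.4% and 5.13% of all genes. After position correction 3, 1, 2, 2 and 3 were lower and 3, 0, 0, 4 and 2 higher, against 7.45% and 4.89%. Their median slopes were 0.0001, 0.0052, -0.0076, -0.0035 and 0.0029.

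Between 17 to 21 and 33 to 44 days 7 genes of these lists other than the mitochondrial one were called lower and 1 higher, against 7.34% and 1.86% of all genes. The lower calls were 2 of 43 ribosome biogenesis genes, 1 of 10 RNA polymerase I genes and 1 of 19 other TOP mRNA genes. In the list of mTORC1 and TOP mRNA control they were 3 of 15. No list was tested as a set. Fbl, the rRNA methyltransferase fibrillarin, and Riok1, a kinase of 40S maturation, fell, with differences of -0.4475 and -0.5542. Polr1d, a subunit of RNA polymerases I and III, fell by 0.37, and Taf1a, of the promoter factor SL1, rose by 0.4642. Eef1g, of the elongation factor complex, fell by 0.3542. In the mTORC1 list Tsc1, which restrains mTORC1, fell by 0.5092, and so did the S6 kinase family member Rps6ka3 (-0.4675) and Mknk2, a kinase of Eif4e (-0.51). The adjusted p of these 8 genes ran from 0.0154 (Tsc1) to 0.03298 (Polr1d). All lie on table B, 7 of them in columns 7 and 9, and after position correction 0 genes of these lists passed. Fau, the 1 measured ribosomal protein outside the name rule, differed by 0.0333 (SE 0.1349, limma adjusted p = 0.9425), and of the mitochondrial ribosomal protein genes 3 of 49 were called lower.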

How the data were processed

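The authors deposited 1 z score per spot and array for 80 arrays, a score centred and scaled within each array; for its underlying scale, background correction and image software the processing is not given in the sources used here. Names came from the platform annotation, and all 66 genes matched RefSeq (assembly GRCm38.p6). Two-sided tests came from limma 3.58.1 (R 4.3.3; lmFit, then eBayes) on every spot of each table, with Benjamini-Hochberg adjustment over 16896 spots at 0.05. Slopes (per 100 days) and the youngest comparison had sex as a term; steps and sex were contrasts of 8 group means. Each comparison was checked, under the main settings only, on artificial values with known answers, drawn independently for each spot. Alternatives were quantile normalization, spot position, trend and robust eBayes, title number at 46 or its 5 sets as a block, log2 of age, the mean of a gene's spots, leaving out the dimmest 33.3% of spots, the 4 paralogue names or each mouse. Members, lists and tests were chosen with earlier results of these data known. Named genes were those with the smallest p per direction (up to 8 for the slope over 40 mice and the youngest comparison, up to 4 elsewhere), the stalk and X-linked genes and those with 4 or more spots; Rps25, Rps12's column, Rplp1's spots and the likeness ranking were chosen after their values were seen. Depth has no meaning for arrays: the number of mice limits the precision. Figures used matplotlib 3.10.9 in Python 3.11.15.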

Additional observations from a re-analysis of the deposited data

Results flagged for a closer look

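In 8 of 96 groups of 10 mice tested, 1 mouse lay far from the others, its gap to the next a larger share of the range than Dixon's 95% critical value; about 1 group in 20 does so by chance. A female of 17 days was lowest for Rpl10 (0.72, next 1.04) and Rpl23 (1.13, next 1.44). A female of 704 days was lowest for Rpl10 (0.65, next 1.1). One male of 476 days was highest of its group for Rpl35a (0.63, next 0.39), Rpl38 (1.54, next 1.16) and Rps3a1 (1.57, next 1.24). A male of 193 days was lowest for Rplp2 (0.48, next 0.64), and a male of 495 days for Rps24 (-0.01, next 0.21).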

How the results depend on the processing

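For the slope over 40 mice the 0 calls became 1 with spot position corrected (Rps25), 1 with trend and robust settings (Rpl38), 2 without the dimmest 33.3% of spots and 7 with log2 of age; leaving out 1 mouse gave 0 to 3. It was 2 without a male of 43, 186, 743, 476, 730 or 40 days or a female of 193, 194, 33 or 180 days, and 3 without the male of 194 days; the genes gained were Rpl38, Rps6 and once Rpl19. Within the youngest mice the 6 calls became 0 with position corrected, with either title division as a block or with the earlier mice alone, and 0 to 11 leaving out 1 mouse. Of these 6 genes, 3 lost their call with the mean of all spots of a gene and 1 with quantile normalization. The median interaction was -0.0168 with title numbers above 46 alone. Position correction turned the slope over 40 mice of Rpl38 (0.0088), Rps13 (0.0013), Rps10 (0.0018), Rplp1 (0.0027) and Rps24 (-0.0021), and the adult slope of Rpl38 (0.0083) and Rps29 (0.0084). It turned the early step of Rpl38 (0.0296), the late step of Rpl38 (0.0474) and Rps29 (0.0477), and the sex difference of Rplp2 (-0.0054), Rpl10 (-0.0142) and Rpl36a (0.0321). In the youngest mice it turned Rpl38 (0.1479), Rps3a1 (0.0775), Rplp1 (0.0089), Rps19 (-0.0522) and Rps24 (-0.0896). The mean of all spots turned the slope of Rplp0 (-0.0104), the interaction of Rpl4 (-0.0058) and the youngest difference of Rpl23 (-0.0467), and either title block that of Rplp2 (-0.0262). Leaving out 1 mouse turned the slope of Rplp0 (-0.004 to 0.0072), the sex difference of Rpl10 (-0.0038 to 0.045), Rpl36a (-0.037 to 0.0124) and Rpl39 (-0.0568 to 0.0066), and the youngest difference of Rplp2 (-0.0164 to 0.0836). The cause of these changes was not tested. The counts of calls in the other 5 comparisons stayed at 0 under each alternative run. With the 5 sets of title numbers as a replicate block, chosen after seeing the data, the slope over 40 mice had 2 calls (Rpl38 and Rps6), the youngest comparison 0, and the youngest difference of Rplp0 turned to 0.0971; no other count of calls changed. No label pairs these mice, and the main fits do not take the sets into account. Deviations from the group correlated between mice of 1 set at a median of r = 0.171 (-0.494 to 0.671, 140 pairs, over 7151 genes). Of 40 mice, 19 lay nearest to their own set. For the slope over 40 mice, the block of sets called 2.55% of all genes lower, against 0.028% in either direction without it. Whether the sets act as pairs was not tested.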
